A study of Mus musculus with 21 samples.

Results

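The mast cell and basophil genes are 10 genes that mark these 2 related granulocyte lineages: Cpa3, Mcpt8, Prss34, Cma1, Fcer1a, Ms4a2, Hdc, Alox5, Cd200r3 and Il4. They were taken by gene name from a table of 54532 genes, in which all 10 were found. RNA was sequenced from bone marrow cells of C57BL/6 mice that had been enriched on magnetic beads for c-kit (CD117), a receptor tyrosine kinase that blood progenitors and mast cells both carry. The 4 genotypes were Asxl1-/-Jak2V617F (3 libraries), Jak2V617F (3 libraries), Asxl1-/- (2 libraries) and WT (3 libraries). Asxl1 encodes a chromatin regulator, and Jak2V617F is the activated kinase allele of myeloproliferative neoplasms. The design asks what loss of Asxl1 does in Jak2V617F marrow, and what each allele does alone. The sources used here do not give how the alleles were made or in which cells they act, the age of the mice or any pooling of animals.

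Mast cells and basophils store histamine and proteases in granules and carry the high-affinity IgE receptor, and they release their granules when antigen cross-links the bound IgE. Basophils complete their maturation in the marrow, whereas mast cell precursors leave it and mature in tissues. The proteases differ between the lineages: Mcpt8 and Prss34 are proteases of mouse basophils, Cma1 is a mast cell chymase, and Cpa3, the mast cell carboxypeptidase, is found in both lineages and at low level in blood progenitors. Hdc makes histamine from histidine and is also transcribed in immature myeloid cells, and Alox5, the first enzyme of leukotriene synthesis, is shared with neutrophils and monocytes.

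The libraries held 16198011 to 19196283 counts each. All 10 genes were among the 16262 that passed the filter on low counts. Asxl1 itself had 93.4 to 100 CPM (counts scaled to a common library size) in Asxl1-/-Jak2V617F and 89 to 97 CPM in Asxl1-/-, against 132 to 196 CPM in Jak2V617F and 161 to 164 CPM in WT. Jak2 had 86 to 97.2 CPM in Asxl1-/-Jak2V617F, 121 to 129 CPM in Jak2V617F, 99.8 to 103 CPM in Asxl1-/- and 71.6 to 83.3 CPM in WT. The part of the Jak2 level in the members' values was not tested. Y-linked genes were read in both Asxl1-/- libraries and in Jak2V617F 2 and in none of the other libraries, so in Asxl1-/- against WT the genotype and the sex of the mice cannot be told apart. The 3 Jak2V617F libraries stood apart from the rest in their granulocyte and erythroid genes, with values given below. Nothing in the labels ties replicates to separate animals. Y-linked genes had 263 CPM in Jak2V617F 2 and 0 CPM in Jak2V617F 1 and 3, so that group did not come from a single animal. For the other genotypes this cannot be told, and their part of the spread behind each p-value may be technical. In bulk samples fewer cells of a type and less RNA per cell cannot be told apart.

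The promoters of these genes are shown first. GATA factors such as Gata2 are known regulators of mast cells and basophils. In the 250 bases before the RefSeq start (GRCm38.p6) the letters GATAA, or TTATC for the other strand, occurred in windows of 7 of the 10 genes, whereas 22.6% of all 32851 windows of that length hold them. The match lay 45 bases before the start in Cpa3, 30 in Prss34, 92 in Fcer1a and 162 in Alox5, while Ms4a2 had 3 matches at 224, 37 and 10 bases. Cma1 (194 bases) and Cd200r3 (115 and 38 bases) held it as well, and the windows of Mcpt8, Hdc and Il4 did not hold these letters. In these 3 genes, unlike the other 7, the RefSeq start lies inside the gene of the deposited table, so that the window reaches into that gene. The 7 genes with a match include Cma1 and Cd200r3, which did not pass in the main comparison. Mcpt8 and Hdc, without a match, did pass there. The E-box letters CATGTG or CACGTG, which MITF-type factors are known to bind, were found in 3 of the 10 genes against 17.6% of all windows. TGTGGT, the core that RUNX factors bind, was found in 3 of the 10 against 14% of all windows, on either strand in each case. The shares over all windows were not matched for base composition. No binding was measured here, and whether GATA factors underlie the changes was not tested. In Jak2V617F against WT the log2 fold change was 1.44 ± 0.22 for Gata1 and -0.43 ± 0.16 for Gata2. The windows of 5 genes with a match and a change between genotypes follow, 5′ to 3′ on the strand of the gene and ending at the base before the start, with GATAA or TTATC in capitals. They are Cpa3 (chr3:20242182-20242431, minus strand), Prss34 (chr17:25298144-25298393, plus strand), Fcer1a (chr1:173227230-173227479, minus strand), Ms4a2 (chr19:11623720-11623969, minus strand) and Alox5 (chr6:116461179-116461428, minus strand).
Cpa3: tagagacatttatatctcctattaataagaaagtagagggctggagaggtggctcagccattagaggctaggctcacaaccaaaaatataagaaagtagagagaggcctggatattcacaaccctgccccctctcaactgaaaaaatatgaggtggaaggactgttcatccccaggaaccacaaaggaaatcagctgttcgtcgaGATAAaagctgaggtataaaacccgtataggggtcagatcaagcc
Prss34: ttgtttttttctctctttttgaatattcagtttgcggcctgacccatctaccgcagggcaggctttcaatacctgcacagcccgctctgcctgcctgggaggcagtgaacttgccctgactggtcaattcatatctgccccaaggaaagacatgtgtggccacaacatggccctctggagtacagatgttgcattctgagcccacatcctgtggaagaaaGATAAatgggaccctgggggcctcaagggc
Fcer1a: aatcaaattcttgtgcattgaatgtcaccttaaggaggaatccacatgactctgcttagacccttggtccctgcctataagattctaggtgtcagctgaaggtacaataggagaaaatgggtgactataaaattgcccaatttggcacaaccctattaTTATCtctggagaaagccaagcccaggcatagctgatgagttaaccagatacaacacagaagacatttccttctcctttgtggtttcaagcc
Ms4a2: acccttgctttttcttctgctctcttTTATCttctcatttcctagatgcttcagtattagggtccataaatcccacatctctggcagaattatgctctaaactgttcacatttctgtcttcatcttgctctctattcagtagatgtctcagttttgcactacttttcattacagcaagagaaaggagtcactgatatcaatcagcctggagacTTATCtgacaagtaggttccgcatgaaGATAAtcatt
Alox5: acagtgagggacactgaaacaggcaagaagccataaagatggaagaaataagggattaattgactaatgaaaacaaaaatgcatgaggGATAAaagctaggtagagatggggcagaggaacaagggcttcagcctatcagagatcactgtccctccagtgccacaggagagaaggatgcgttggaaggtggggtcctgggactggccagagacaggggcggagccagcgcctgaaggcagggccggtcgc

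Per kilobase of gene length the protease genes Prss34, Mcpt8 and Cpa3 and the enzyme genes Hdc and Alox5 were the 5 highest of the set in every genotype. In WT libraries Prss34 led with 52.2 CPM per kb, followed by Mcpt8 (36.8), Alox5 (33.2), Hdc (31.4), Cpa3 (18.6), Ms4a2 (8.98) and Fcer1a (4.71), and Il4, Cd200r3 and Cma1 were at 0.693 or less. Each of the first 4 overlapped the next among them, and Hdc and Cpa3 did not overlap. In Asxl1-/- libraries Cpa3 stood second with 44.8 CPM per kb, overlapping Prss34 above it (45.5) and Hdc below it (43.8). In Asxl1-/-Jak2V617F libraries Hdc led with 29.8 CPM per kb and overlapped Mcpt8 (25.8), as did each following pair down to Cpa3 (18.6). In Jak2V617F libraries the order began with Prss34 (6.26 CPM per kb), Mcpt8 (4.03), Hdc (3.72) and Cpa3 (3.60), each overlapping the next, and Il4 (1.37) ranked above Fcer1a (0.705).

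**Figure D1:**
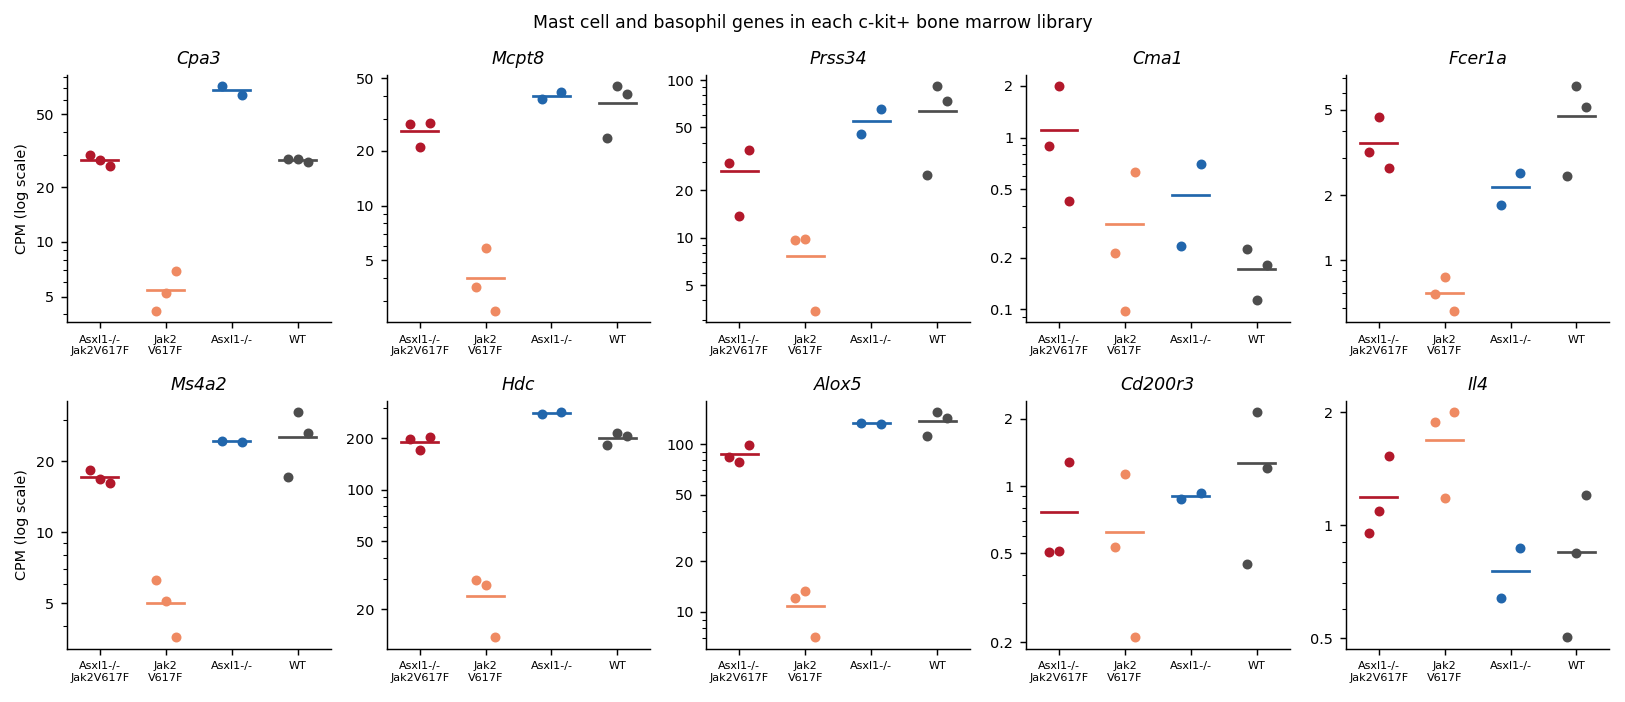
Level of each of the 10 genes in every library, in CPM on a log axis, with 1 panel per gene, 1 point per library and a line at each group's mean, and genotypes in the order Asxl1-/-Jak2V617F, Jak2V617F, Asxl1-/- and WT. In 7 panels the 3 Jak2V617F libraries lie below every other library, while Cma1, Cd200r3 and Il4 overlap.

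The first comparison set the double mutant against the Jak2 mutant. 7 of the 10 genes were higher in Asxl1-/-Jak2V617F than in Jak2V617F libraries and 0 were lower, where 24.5% of all genes tested were higher and 19.8% lower by edgeR. The count of 0 lower was the same at an unadjusted p under 0.05 and by DESeq2. The median log2 fold change of the 10 genes was 2.06, against -0.01 over all genes. For all 7 the 2 groups' libraries did not overlap.

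Of the 4 granule proteases 3 rose. Cpa3 (ENSMUSG00000001865, mm10 chromosome 3, 20215620 to 20242181) had 30.1, 28.3 and 26.2 CPM in the Asxl1-/-Jak2V617F libraries, against 4.18, 5.24 and 6.96 CPM in the Jak2V617F libraries. Its log2 fold change was 2.37 ± 0.16 (edgeR's quasi-likelihood test, Benjamini-Hochberg adjusted p = 7.45e-07). The libraries of each genotype lay close together, and the highest Jak2V617F library was far below the lowest double mutant. Mcpt8 (ENSMUSG00000022157, chromosome 14, 56082166 to 56085273) had 28.2, 20.9 and 28.3 CPM in Asxl1-/-Jak2V617F and 3.59, 5.83 and 2.64 CPM in Jak2V617F (2.67 ± 0.31, adjusted p = 7.25e-05). MicroRNA genes overlap these proteases on the same strand, Mir7007 in Cpa3 and Mir6949 in Mcpt8, and held 14 counts and 1 count over all 11 libraries.

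Prss34 (ENSMUSG00000056399, chromosome 17, 25298394 to 25300161) varied more. It had 29.8, 13.8 and 35.9 CPM in Asxl1-/-Jak2V617F, against 9.60, 9.80 and 3.43 CPM in Jak2V617F, and Asxl1-/-Jak2V617F 2 lay nearest to the Jak2V617F libraries. The log2 fold change was 1.80 ± 0.59 (adjusted p = 0.0378), and this call was lost without any of 7 libraries (Asxl1-/-Jak2V617F 1 or 3, Jak2V617F 1, 2 or 3, Asxl1-/- 1 or 2; adjusted p = 0.0559 to 0.108). It was also lost with no filter (0.0935) and with a sex term (0.0636). Cma1 (ENSMUSG00000022225, chromosome 14, 55941451 to 55944675) had few reads, with 16, 35 and 7 counts in Asxl1-/-Jak2V617F and 4, 2 and 12 counts in Jak2V617F. The groups overlapped and the log2 difference of 1.81 ± 0.71 did not pass (adjusted p = 0.0582). It passed with no filter (0.0349), without Asxl1-/-Jak2V617F 3 (0.0247) and without Jak2V617F 3 (0.0200).

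Both measured subunits of the IgE receptor that are confined to few cell types rose as well. Ms4a2, the signal-amplifying beta chain (ENSMUSG00000024680, chromosome 19, 11615523 to 11623719), had 18.3, 16.8 and 16.1 CPM in Asxl1-/-Jak2V617F and 6.27, 5.10 and 3.58 CPM in Jak2V617F (log2 1.77 ± 0.24, adjusted p = 0.000114). Fcer1a, the alpha chain that binds IgE (ENSMUSG00000005339, chromosome 1, 173221284 to 173227214), had 3.20, 4.63 and 2.69 CPM in Asxl1-/-Jak2V617F and 0.697, 0.833 and 0.580 CPM in Jak2V617F (2.30 ± 0.40, adjusted p = 0.000654). The Jak2V617F values rest on 13, 17 and 11 counts, yet all 3 lay below every double mutant library. The gamma chain Fcer1g, which other Fc receptors also use, rose by 2.06 ± 0.23 (adjusted p = 6.12e-05).

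The 2 enzyme genes changed most. Hdc (ENSMUSG00000027360, chromosome 2, 126593667 to 126619299) had 197.1, 169.7 and 203.9 CPM in Asxl1-/-Jak2V617F, against 29.8, 27.8 and 13.7 CPM in Jak2V617F (log2 3.0 ± 0.24, adjusted p = 7.21e-06). Alox5 (ENSMUSG00000025701, chromosome 6, 116410077 to 116461178) had 84.3, 77.8 and 98.9 CPM in Asxl1-/-Jak2V617F, against 12.1, 13.4 and 7.06 CPM in Jak2V617F (3.0 ± 0.22, adjusted p = 2.94e-06). For both genes Jak2V617F 3 was the lowest library.

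Cd200r3 and Il4 did not pass. Cd200r3, an activating receptor of the CD200 receptor family on basophils and mast cells (ENSMUSG00000036172, chromosome 16, 44943678 to 44981380), had 0.505, 0.515 and 1.28 CPM in Asxl1-/-Jak2V617F and 0.536, 1.13 and 0.211 CPM in Jak2V617F. The groups overlapped (log2 0.27 ± 0.67, adjusted p = 0.772, 95% interval -1.2 to 1.74). Il4, a cytokine of basophils and of helper T cells (ENSMUSG00000000869, chromosome 11, 53602982 to 53618669), had 0.953, 1.09 and 1.53 CPM in Asxl1-/-Jak2V617F and 1.88, 1.18 and 2.00 CPM in Jak2V617F (-0.50 ± 0.38, adjusted p = 0.308). Among the 10 genes it was the one with a lower mean in the double mutant.

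Without Jak2V617F 2, the library with Y-linked reads, the compared libraries all lacked such reads. The log2 fold changes were then 2.32 for Cpa3, 3.03 for Mcpt8, 2.43 for Fcer1a, 1.78 for Ms4a2, 3.12 for Hdc and 3.17 for Alox5, with adjusted p-values of 0.00234 or less by edgeR, and 6 of the 7 calls remained.

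**Figure D2:**
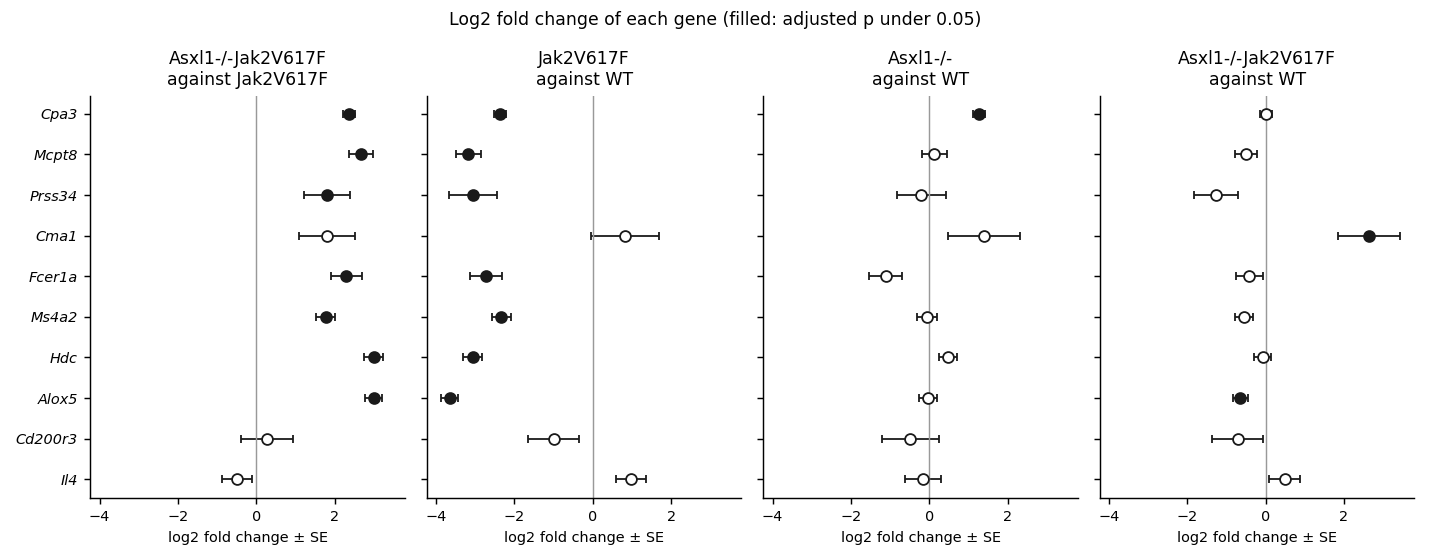
Log2 fold change of each of the 10 genes in 4 comparisons (1 panel each), with bars for ± 1 SE of the edgeR fit and filled points for adjusted p under 0.05. In Asxl1-/-Jak2V617F against Jak2V617F 7 filled points lie right of 0, and in Jak2V617F against WT 7 lie left of 0, 2 comparisons that share the Jak2V617F libraries.

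Jak2V617F against WT shares the Jak2V617F libraries with the comparison above, so its values are given side by side with those and are not a second observation. 7 genes were lower in Jak2V617F than in WT and 0 were higher by edgeR or DESeq2 (1 at an unadjusted p under 0.05), where 29.2% of all genes were lower and 24.4% higher, and the median log2 fold change was -2.55 against -0.05 over all genes. All 7 calls held in every one of the 18 alternative fits. Cpa3 was 28.4, 28.5 and 27.6 CPM in WT, and its log2 fold change in Jak2V617F was -2.37 ± 0.16 (adjusted p = 6.45e-07). Mcpt8, at 23.5, 45.5 and 41.0 CPM in WT, had a log2 fold change of -3.18 ± 0.32 (adjusted p = 1.84e-05). Every WT library lay above the highest Jak2V617F library for both proteases. Prss34 had 25.1, 91.9 and 73.3 CPM in WT and fell by 3.06 ± 0.61 on the log2 scale in Jak2V617F (adjusted p = 0.00287).

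The receptor chains and enzymes were lower in the same way. Ms4a2 fell by 2.34 ± 0.24 in Jak2V617F (adjusted p = 1.2e-05), with 17.1, 32.3 and 26.3 CPM in WT. Fcer1a fell by 2.73 ± 0.40 (adjusted p = 0.000141), with 2.46, 6.47 and 5.18 CPM in WT. Even the lowest WT library, WT 1, lay above all 3 Jak2V617F libraries for both chains. Hdc fell by 3.07 ± 0.24 (adjusted p = 5.04e-06; WT 182.0, 214.9 and 204.2 CPM). Alox5 fell by 3.65 ± 0.22 (adjusted p = 8.45e-07; WT 111.6, 155.3 and 142.6 CPM), the largest change of the 10 genes in this comparison.

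Il4 ran the other way without passing. It had 1.88, 1.18 and 2.00 CPM in Jak2V617F and 0.503, 0.844 and 1.2 CPM in WT (log2 0.98 ± 0.39, adjusted p = 0.0501), and Jak2V617F 2 lay within the WT range. It passed with median-of-ratios scaling (0.0414), a stricter filter (0.0394) or a sex term (0.0321), and without Asxl1-/-Jak2V617F 3 (0.0481), Jak2V617F 2 (0.0266) or WT 3 (0.0292). The T cell markers Cd3e, Cd3d, Cd3g, Cd4, Il7r, Trbc1 and Trbc2 summed to 23.7 to 48.7 CPM in Jak2V617F and 26.1 to 30.1 CPM in WT, and 1 of the 7 was higher in Jak2V617F. In Asxl1-/-Jak2V617F they summed to 6.29 to 14.6 CPM, and 5 of the 7 were lower there than in Jak2V617F. Their part in the Il4 values was not tested. Cd200r3 had 0.447, 2.14 and 1.2 CPM in WT (-1.0 ± 0.65 in Jak2V617F, adjusted p = 0.216), and Cma1 had 4, 2 and 3 counts in WT (0.83 ± 0.87, adjusted p = 0.444).

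In Asxl1-/- against WT, Cpa3 was the 1 gene of the 10 that was higher and 0 genes were lower by edgeR or DESeq2 (1 at an unadjusted p under 0.05), where 11.3% of all genes were higher and 11.2% lower, and the median log2 fold change was -0.04 against -0.01 over all genes. A count of 1 in 10 is near those shares. Cpa3 had 71.8 and 63.9 CPM in Asxl1-/-, against 28.4, 28.5 and 27.6 CPM in WT (log2 1.27 ± 0.16, adjusted p = 0.00128). Both Asxl1-/- libraries carried Y-linked reads, and with a sex term, which rests on the single Y-bearing library Jak2V617F 2 outside this genotype, the value was 1.36 ± 0.31 (adjusted p = 0.0452).

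The basophil proteases overlapped between Asxl1-/- and WT. Mcpt8 had 38.5 and 41.9 CPM in Asxl1-/- (0.13 ± 0.31 against WT, adjusted p = 0.793) and Prss34 had 45.5 and 65.2 CPM (-0.20 ± 0.62, adjusted p = 0.850). Ms4a2, at 24.3 and 24.2 CPM in Asxl1-/-, gave -0.06 ± 0.25 (95% interval -0.61 to 0.49, adjusted p = 0.893). Fcer1a, at 1.81 and 2.55 CPM in Asxl1-/-, gave -1.11 ± 0.42 (adjusted p = 0.0762), and it passed without WT 1 (-1.39, adjusted p = 0.0162). Hdc was 277.3 and 283.4 CPM in Asxl1-/-, above all 3 WT libraries, but did not pass (0.48 ± 0.24, adjusted p = 0.178). It passed in a fit of these 2 genotypes alone (0.0196) and without Jak2V617F 3 (0.0103). Alox5 was 134.4 and 132.4 CPM in Asxl1-/- (-0.03 ± 0.22, adjusted p = 0.927), inside the WT range. Cma1 (0.233 and 0.697 CPM), Cd200r3 (0.875 and 0.929 CPM) and Il4 (0.641 and 0.871 CPM) did not pass.

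Against WT, the double mutant differed at 2 genes, each close to the threshold. One of the 10 genes was higher and 1 lower in Asxl1-/-Jak2V617F, where 8.3% of all genes were higher and 6.76% lower. A count of 1 in 10 is near those shares. The median log2 fold change was -0.47 against -0.02 over all genes. Cma1 was higher, with 0.897, 2.00 and 0.427 CPM in Asxl1-/-Jak2V617F and 0.224, 0.113 and 0.181 CPM in WT (2.64 ± 0.79, adjusted p = 0.0436). The groups did not overlap, but all WT libraries together held 9 counts. Leaving out any of 8 libraries ended this call (Asxl1-/-Jak2V617F 1 or 2, Jak2V617F 1, Asxl1-/- 1 or 2, WT 1, 2 or 3; adjusted p = 0.0515 to 0.163), and without Asxl1-/-Jak2V617F 2 the value was 1.94. Alox5 was lower, with 84.3, 77.8 and 98.9 CPM in Asxl1-/-Jak2V617F and 111.6, 155.3 and 142.6 CPM in WT (-0.65 ± 0.19, adjusted p = 0.0488). That call was lost without any of 8 libraries too (Asxl1-/-Jak2V617F 1, 2 or 3, Jak2V617F 1, Asxl1-/- 1 or 2, WT 2 or 3; adjusted p = 0.0510 to 0.162). It was also lost with median-of-ratios scaling (0.0533), no filter (0.142) and the stricter filter (0.0502).

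The other proteases and receptor chains lay near or below WT. Cpa3 differed by 0.00 ± 0.15 on the log2 scale (95% interval -0.32 to 0.32), with overlapping libraries. Hdc gave -0.08 ± 0.22 (95% interval -0.56 to 0.41), Mcpt8 -0.51 ± 0.28 (adjusted p = 0.233) and Fcer1a -0.42 ± 0.35 (adjusted p = 0.429). Prss34 (-1.26 ± 0.56, adjusted p = 0.159) and Ms4a2 (-0.56 ± 0.23, adjusted p = 0.107) did not pass, yet both were called lower without WT 1, at -1.61 (adjusted p = 0.0443) and -0.75 (adjusted p = 0.0224). Cd200r3 (-0.72 ± 0.64, adjusted p = 0.456) and Il4 (0.48 ± 0.40, adjusted p = 0.422) did not pass. WT 1 was the lowest WT library for 8 of the 10 genes, and Cpa3 and Cma1 were the exceptions.

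Against Asxl1-/-, the double mutant was lower in Cpa3 and higher in 0 genes (by edgeR, also unadjusted, and by DESeq2), where 3.31% of all genes were higher and 2.22% lower. The median log2 fold change was -0.53 against 0 over all genes. Cpa3 was 30.1, 28.3 and 26.2 CPM in Asxl1-/-Jak2V617F and 71.8 and 63.9 CPM in Asxl1-/- (-1.27 ± 0.16, adjusted p = 0.00247). The Asxl1-/- libraries carry Y-linked reads and the Asxl1-/-Jak2V617F libraries do not, so sex and genotype cannot be told apart here either, and a sex term ended that call (-1.35, adjusted p = 0.114). Hdc (-0.56 ± 0.24, adjusted p = 0.217) and Alox5 (-0.62 ± 0.21, adjusted p = 0.131) did not overlap between the genotypes and did not pass, but both did in a fit of the 2 genotypes alone (0.0304 and 0.0329) and without Jak2V617F 3 (0.0134 and 0.0319). The basophil proteases Mcpt8 (-0.64 ± 0.31) and Prss34 (-1.06 ± 0.61) and the receptor chains Ms4a2 (-0.51 ± 0.25) and Fcer1a (0.68 ± 0.41) had adjusted p-values of 0.264 or more. The libraries of the genotypes did not overlap for these genes either. Cma1 (1.24 ± 0.79), Il4 (0.64 ± 0.45) and Cd200r3 (-0.24 ± 0.73) did not pass either, and of these Cma1 and Cd200r3 overlapped.

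For 6 genes the difference between genotypes with and without Asxl1 loss was not the same in the 2 Jak2 backgrounds. The interaction asks whether Asxl1-/-Jak2V617F minus Jak2V617F exceeds Asxl1-/- minus WT, and it uses the same libraries as the comparisons above, so the sex of the Asxl1-/- mice enters it too. 6 of the 10 genes had a higher effect in the Jak2V617F background and 0 a lower one (also unadjusted, and by DESeq2), where 23.7% of all genes were higher and 17.9% lower, and the median was 1.91 against 0.10. The members differed in how far the effects parted. Fcer1a had the largest difference (3.41 ± 0.58, adjusted p = 0.000972), since its log2 difference was positive in the Jak2V617F background and negative, without passing, in the WT background. Alox5 (3.03 ± 0.31, adjusted p = 7.78e-05), Mcpt8 (2.54 ± 0.45, adjusted p = 0.00162) and Hdc (2.51 ± 0.34, adjusted p = 0.000473) followed. Ms4a2 differed by 1.83 ± 0.35 (adjusted p = 0.00191) and Cpa3 by 1.10 ± 0.23 (adjusted p = 0.0028).

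Cpa3 was called higher both in Asxl1-/-Jak2V617F against Jak2V617F (2.37) and in Asxl1-/- against WT (1.27), where sex and genotype cannot be told apart. With a sex term neither Cpa3 (0.98, adjusted p = 0.115) nor Ms4a2 (1.89, adjusted p = 0.0602) passed in the interaction. Prss34 missed the threshold (1.99 ± 0.86, adjusted p = 0.0978) and reached it when WT 1 was left out (2.34, adjusted p = 0.0267). Cma1 (0.41 ± 1.25), Cd200r3 (0.76 ± 0.98) and Il4 (-0.34 ± 0.60) had standard errors of 0.60 or more and did not pass.

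**Figure D3:**
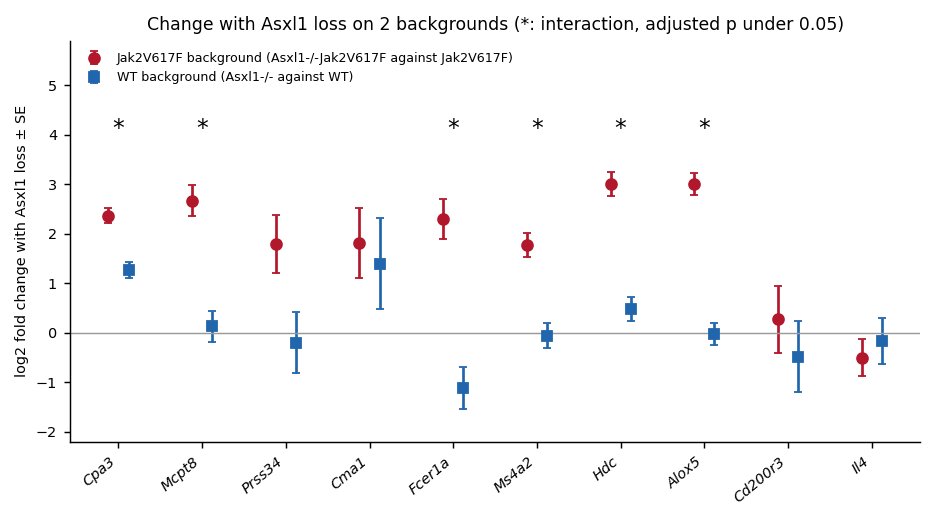
Log2 effect of Asxl1 loss for each gene in the Jak2V617F background (Asxl1-/-Jak2V617F against Jak2V617F) and in the WT background (Asxl1-/- against WT), with bars for ± 1 SE and an asterisk where the interaction passed. 6 genes had a larger effect in the Jak2V617F background by the interaction test, and Cpa3 was called in both backgrounds.

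Within a library the members kept some ratios and not others. Alox5 stood at 0.665 to 0.755 of Hdc per kb in Asxl1-/-Jak2V617F, 0.632 to 0.802 in Jak2V617F and 0.727 to 0.754 in Asxl1-/-, against 0.954 to 1.12 in WT. The WT range lay above the 3 mutant genotypes, although both genes were lowest in Jak2V617F. Cpa3 per kb was 1.23 and 1.0 times Mcpt8 in the 2 Asxl1-/- libraries and 0.794, 0.412 and 0.442 times in WT. In Asxl1-/-Jak2V617F this ratio was 0.611 to 0.890 and in Jak2V617F 0.592 to 1.74, where Jak2V617F 3 was the high one. The beta chain Ms4a2 exceeded the alpha chain Fcer1a per kb in all 11 libraries, by 1.28 to 2.13 times in Asxl1-/-Jak2V617F, 2.17 to 3.19 times in Jak2V617F, 3.36 to 4.77 times in Asxl1-/- and 1.77 to 2.47 times in WT. The Asxl1-/- libraries had the highest of these ratios.

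Markers of other cells in the c-kit fraction moved with the set. The 10 genes together summed to 335.5 to 415.3 CPM in Asxl1-/-Jak2V617F, 40.8 to 70.5 CPM in Jak2V617F, 595.5 to 616.1 CPM in Asxl1-/- and 391.4 to 578.0 CPM in WT. The neutrophil granule genes Mpo, Elane, Prtn3, Ctsg, S100a8, S100a9, Ngp, Ltf, Camp and Lcn2 summed to 40425.9 to 50028.9 CPM in Asxl1-/-Jak2V617F, 2546.8 to 5591.4 CPM in Jak2V617F, 66682.1 to 67882.7 CPM in Asxl1-/- and 44647.3 to 60029.4 CPM in WT. All 10 of them were higher in Asxl1-/-Jak2V617F against Jak2V617F (median log2 3.10) and all 10 lower in Jak2V617F against WT (median -3.57). The part of the neutrophil genes in the members' values was not tested.

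Eosinophils share precursors and granule genes with basophils. Their markers Prg2, Prg3, Epx, Siglecf, Il5ra and Ccr3 summed to 355.9 to 613.1 CPM in Asxl1-/-Jak2V617F and 36.1 to 40 CPM in Jak2V617F, against 464.7 to 626.9 CPM in Asxl1-/- and 184.4 to 344.7 CPM in WT. Of the 6, 4 were higher and 1, Ccr3, lower in Asxl1-/-Jak2V617F against Jak2V617F. Among all genes 24.5% were higher and 19.8% lower there, and the same shares apply to the marker counts below for that comparison. Ccr3 had a mean of 0.492 CPM in Asxl1-/-Jak2V617F, 3.86 in Jak2V617F, 48.6 in Asxl1-/- and 26.6 in WT. The sum hides this, since Prg2 alone had a mean of 335 CPM in Asxl1-/-Jak2V617F. The monocyte markers Ly6c2, Ccr2, Csf1r, Lyz2 and Cd14 ran from 3203.8 to 3546.7 CPM in Asxl1-/-Jak2V617F, 259.5 to 630.6 CPM in Jak2V617F, 6642.2 to 6732.4 CPM in Asxl1-/- and 3944.0 to 6329.6 CPM in WT, and 5 of 5 were higher in Asxl1-/-Jak2V617F against Jak2V617F. The 7 erythroid markers Klf1, Epor, Tfrc, Rhag, Car1, Slc4a1 and Ermap went the opposite way. They summed to 1422.5 to 2421 CPM in Asxl1-/-Jak2V617F and 4176 to 5262.7 CPM in Jak2V617F, against 1527.1 to 1687.1 CPM in Asxl1-/- and 986.1 to 1735.6 CPM in WT, and 7 of 7 were lower in Asxl1-/-Jak2V617F against Jak2V617F. Megakaryocyte markers summed to 60.7 to 81.2 CPM in Asxl1-/-Jak2V617F, 35.4 to 42.1 CPM in Jak2V617F, 99.7 to 102.7 CPM in Asxl1-/- and 92.8 to 108.5 CPM in WT. The stem and progenitor markers Cd34, Hlf, Kit, Mecom, Meis1 and Flt3 summed to 389.6 to 501.8 CPM in Asxl1-/-Jak2V617F, 329 to 432.6 CPM in Jak2V617F, 556.2 to 559.3 CPM in Asxl1-/- and 468.4 to 518.2 CPM in WT. Of these 6, 4 were higher and 1 lower in Asxl1-/-Jak2V617F against Jak2V617F, with Cd34 at 2.97 and Hlf at 2.43, and 1 was higher and 4 lower in Jak2V617F against WT. In no library was a neutrophil, eosinophil, monocyte or erythroid marker at 0. Kit, the receptor used for enrichment, stayed within 219 to 338 CPM in all 11 libraries. The part of these other cells was not tested either.

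**Figure D4:**
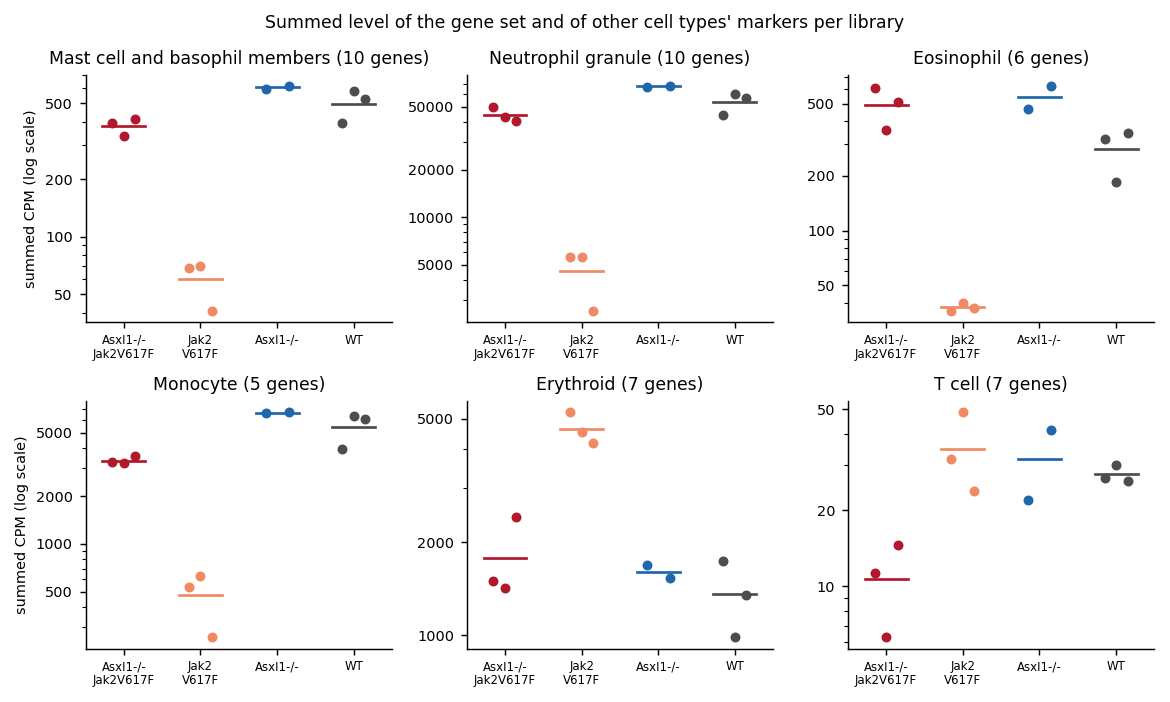
Summed CPM of the 10 mast cell and basophil genes and of marker lists for other marrow cells in each library, on log axes, with a line at each group's mean and genotypes in the order Asxl1-/-Jak2V617F, Jak2V617F, Asxl1-/- and WT. The members, neutrophil, eosinophil and monocyte sums are lowest in the 3 Jak2V617F libraries, and the erythroid sum is highest there.

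The label of the set was checked against genes of mature mast cells. Of the tryptases, chymases and receptors of connective tissue and mucosal mast cells, Tpsab1, Mcpt9, Cma2 and Mrgprb1 had 0 counts in all 11 libraries. Mcpt1 had 9 counts, Mcpt2 had 12 and Mcpt4 had 17 over all libraries, and Mrgprb2 was read in 1 library, with 2 counts. The tryptase Tpsb2 had 8 counts or fewer in each library, and the chymase Cma1, a member, had 101 counts over all 11. Only 6 of the 15 mast cell granule and surface genes passed the filter, among them Kit. The basophil proteases Mcpt8 and Prss34 had 13.8 CPM or more in every library of the genotypes other than Jak2V617F. Of the 17 basophil surface and cytokine genes 13 passed the filter. Ptgdr2, Il13, Il6 and Grm6 did not, and their group means were 0.437 CPM or less. The proteases of mature mast cells listed here were at or near 0, while the basophil proteases Mcpt8 and Prss34 were present. Cma1 was low as well, with group means from 0.172 CPM in WT to 1.11 CPM in Asxl1-/-Jak2V617F.

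Mcpt8 and Cma1 belong to a block of related serine protease genes on mm10 chromosome 14, between 55941451 and 56262260. Of its 15 genes 4 were tested: Cma1 (101 counts over 11 libraries), Mcpt8 (4861), the neutrophil protease Ctsg (150917) and the lymphocyte granzyme Gzmb (659). In Asxl1-/-Jak2V617F against Jak2V617F, Ctsg was higher by 4.38 ± 0.28 (adjusted p = 1.47e-06), Mcpt8 by 2.67 ± 0.31 and Gzmb by 1.57 ± 0.35 (adjusted p = 0.00359). Gzmb was also higher in Asxl1-/- against WT (1.13 ± 0.37, adjusted p = 0.0485). The other 11 genes of the block had 17 counts or fewer each. Among the 15 genes Mcpt8 and Ctsg are direct neighbours, and Cma1 and Gzmb lie at the ends of the block. These proteases are similar in sequence, and the sources used here do not say how reads mapping to several genes were counted.

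Genes of the pathways in which the members work were followed in lists of known roles, chosen with earlier results of these data known. Their counts stand beside shares over all genes of 24.5% higher and 19.8% lower in Asxl1-/-Jak2V617F against Jak2V617F. In Jak2V617F against WT the shares were 24.4% higher and 29.2% lower, and in Asxl1-/- against WT 11.3% and 11.2%. In Asxl1-/-Jak2V617F they were 8.3% higher and 6.76% lower against WT, and 3.31% and 2.22% against Asxl1-/-. In IgE receptor signalling, 9 of 13 genes were higher and 1 lower in Asxl1-/-Jak2V617F against Jak2V617F (median log2 0.78), and 2 were higher and 9 lower in Jak2V617F against WT (median -0.96). The guanine exchange factor Vav1 rose by 1.62 ± 0.10, the adaptor Lcp2 by 1.82 ± 0.16 and the phospholipase Plcg2 by 2.19 ± 0.17 in Asxl1-/-Jak2V617F against Jak2V617F, each with an adjusted p of 7.32e-06 or less. The kinase Fyn was the gene that fell (-0.49 ± 0.11, adjusted p = 0.0039). In Jak2V617F against WT the log2 fold changes were -1.70 for Vav1, -2.2 for Lcp2, -2.18 for Plcg2 and -2.56 for Fcer1g. In Asxl1-/- against WT 0 of the 13 passed by edgeR or DESeq2, nor unadjusted (median 0.14). In Asxl1-/-Jak2V617F against WT the adaptor Gab2 was higher (0.55 ± 0.16, adjusted p = 0.0417) and the phospholipase Plcg1 lower (-0.52 ± 0.14, adjusted p = 0.0324). These counts of 1 in 13 each way are near the shares of 8.3% and 6.76%.

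Of 13 tested genes for basophil surface molecules and cytokines, 10 were higher and 1 lower in Asxl1-/-Jak2V617F against Jak2V617F (median 1.81), and 1 was higher and 8 lower in Jak2V617F against WT (median -1.37). Csf2rb, the beta chain shared by receptors for several growth factors of these cells, rose by 2.31 ± 0.21 and its partner Il3ra by 2.2 ± 0.23 in Asxl1-/-Jak2V617F against Jak2V617F. Cd69, an early activation antigen, rose by 3.84 ± 0.28, and the growth factor Csf1 by 2.59 ± 0.27. In Jak2V617F against WT, Cd69 (-2.56), Il3ra (-2.04), Cd200r1 (-1.76) and Csf2rb (-1.81) were among those lower, each with an adjusted p of 5.27e-05 or less. Il1rl1, the receptor for the alarmin IL-33, fell by 1.02 ± 0.16 (adjusted p = 0.000406), with 33.7 to 46.3 CPM in Asxl1-/-Jak2V617F and 68.3 to 96.6 CPM in Jak2V617F. In this list 4 genes were higher in Asxl1-/-Jak2V617F against WT: Cd69 (1.28 ± 0.24), the chemokines Ccl3 (1.35 ± 0.30) and Ccl4 (1.86 ± 0.54), and the cytokine Osm (1.53 ± 0.32), with adjusted p-values of 0.0413 or less. Csf2rb2 (1.68 ± 0.36, adjusted p = 0.0255) and Cd69 (adjusted p = 0.0361) were also higher in Asxl1-/-Jak2V617F against Asxl1-/-, where Cd69 had 38.6 to 55 CPM in Asxl1-/-Jak2V617F and 19.5 and 22 CPM in Asxl1-/-.

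Around Alox5, 7 of 12 eicosanoid genes were higher and 0 lower in Asxl1-/-Jak2V617F against Jak2V617F (median 1.66), and 0 were higher and 8 lower in Jak2V617F against WT (median -1.86). Both counts of 0 were the same unadjusted and by DESeq2. Alox5ap, which presents the substrate to Alox5, rose by 2.08 ± 0.19, and Lta4h, which makes leukotriene B4, by 2.13 ± 0.13. The cyclooxygenase Ptgs1 rose by 3.14 ± 0.27 and the leukotriene receptor Ltb4r1 by 3.08 ± 0.30. All 4 were lower in Jak2V617F against WT, at -2.11 for Alox5ap, -2.29 for Lta4h, -3.48 for Ptgs1 and -3.49 for Ltb4r1. Ltc4s, which makes the cysteinyl leukotriene of mast cells and basophils, did not pass (-0.12 ± 0.49, adjusted p = 0.867). Alox5ap was higher in Asxl1-/- against WT (0.62 ± 0.20, adjusted p = 0.0487). In Asxl1-/-Jak2V617F against WT the inducible cyclooxygenase Ptgs2 was higher (3.39 ± 0.71), and the prostaglandin synthase Hpgds (-2.57 ± 0.61) and the lipoxygenase Alox12 (-2.47 ± 0.62) were lower, with adjusted p-values of 0.0254 or less. Ptgs2 ranged from 3.89 to 18.7 CPM among the Asxl1-/-Jak2V617F libraries, and from 0.361 to 1.90 CPM in WT.

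Around Hdc, the histamine-degrading enzyme Hnmt rose by 3.43 ± 0.40 and the receptor Hrh2 by 1.93 ± 0.23 in Asxl1-/-Jak2V617F against Jak2V617F, while the receptor Hrh1 fell by 2.72 ± 0.83 (adjusted p = 0.02). Hrh1 rested on few reads, with 8 counts over the Asxl1-/-Jak2V617F libraries and 62 over the Jak2V617F libraries. In Jak2V617F against WT the log2 fold changes were -3.44 ± 0.40 for Hnmt and -2.2 ± 0.23 for Hrh2. Hrh1 went the other way (4.56 ± 1.03, adjusted p = 0.00285 by edgeR), with 2 counts over the WT libraries. In these 4 tested genes the counts were 2 higher and 1 lower (median 1.08), against 1 higher and 2 lower in Jak2V617F against WT (median -1.27). Among mast cell granule and surface genes, 3 of 6 were higher and 1 lower in Asxl1-/-Jak2V617F against Jak2V617F (median 0.18). The 1 lower gene of 6 is near the share over all genes (19.8%). Those higher were the granule proteoglycan Srgn (2.57 ± 0.22), the amine transporter Slc18a2 (0.59 ± 0.14) and the secretion factor Rab27b (0.80 ± 0.22), while the heparin-modifying enzyme Ndst2 fell by 0.64 ± 0.17. In Jak2V617F against WT 1 was higher and 3 lower (median -0.48), with Srgn at -1.79 ± 0.21, Slc18a2 at -1.25 ± 0.14, Rab27b at -1.06 ± 0.22 and Ndst2 at 0.50 ± 0.17. Against WT, Srgn was higher (0.78 ± 0.21, adjusted p = 0.0321) and Slc18a2 lower (-0.67 ± 0.13, adjusted p = 0.0123) in Asxl1-/-Jak2V617F.

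Of 16 transcription factors of these and neighbouring lineages, 9 were higher and 4 lower in Asxl1-/-Jak2V617F against Jak2V617F (median 0.90), and 4 were higher and 10 lower in Jak2V617F against WT (median -0.98). Spi1 (2.26 ± 0.16), Cebpb (2.98 ± 0.25), Nfil3 (2.59 ± 0.14) and the LIM protein Lmo4 (1.61 ± 0.14) rose. In Jak2V617F against WT, Nfil3 (-2.35 ± 0.14), Spi1 (-2.08 ± 0.16), Lmo4 (-1.75 ± 0.14) and Mitf (-1.99 ± 0.21) were lower. Mitf, a master regulator of mast cells, rose by 1.74 ± 0.21 (adjusted p = 5.47e-05), with 5.86 to 6.35 CPM in Asxl1-/-Jak2V617F and 1.72 to 2.06 CPM in Jak2V617F. Cebpa, needed for basophils, rose by 3.26 ± 0.27 (adjusted p = 9.39e-06). Gata2, needed for both lineages, did not pass (0.36 ± 0.16, adjusted p = 0.0843), with 52.1 to 65.7 CPM in Asxl1-/-Jak2V617F and 39.0 to 54.0 CPM in Jak2V617F, but was lower in Jak2V617F against WT (-0.43 ± 0.16, adjusted p = 0.0369). Gata1 (-1.34 ± 0.22), its cofactor Zfpm1 (-1.43 ± 0.24), Stat5a (-0.65 ± 0.12) and Hes1 (-2.65 ± 0.44) fell. In Asxl1-/- against WT, Nfil3 was higher (0.51 ± 0.14, adjusted p = 0.0253) and Ikzf2 lower (-0.69 ± 0.20, adjusted p = 0.0297), 1 of 16 each way where 11.3% of all genes were higher and 11.2% lower. In Asxl1-/-Jak2V617F against WT Cebpb was higher (0.78 ± 0.22, adjusted p = 0.0418), 1 of 16 where 8.3% of all genes were higher.

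**Figure D5:**
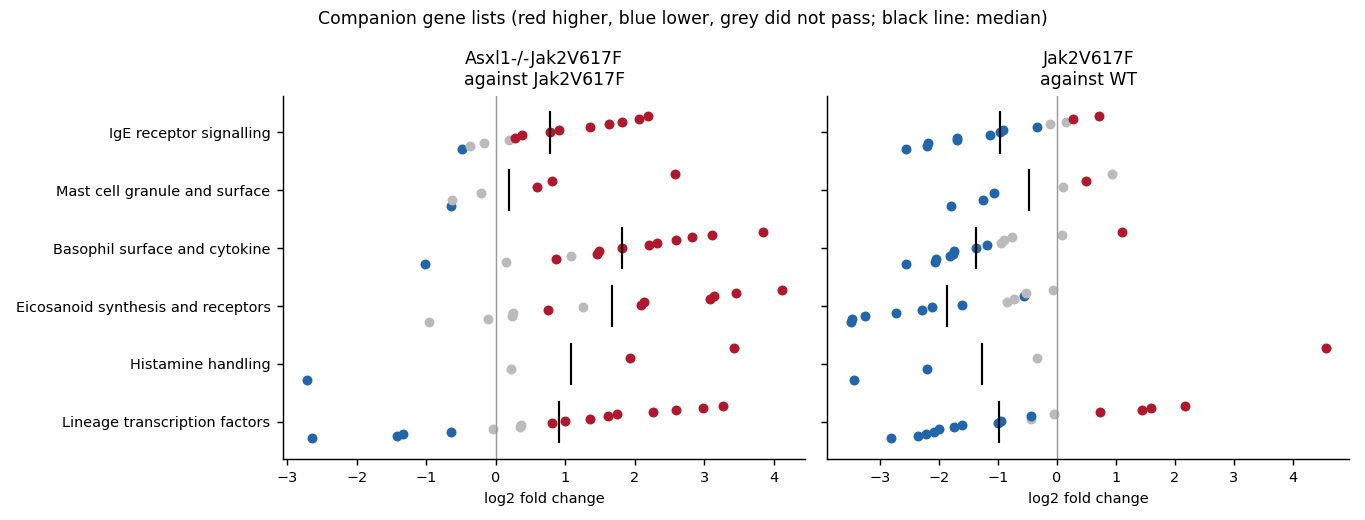
Log2 fold change of each tested gene of the 6 pathway lists in Asxl1-/-Jak2V617F against Jak2V617F and in Jak2V617F against WT, with 1 point per gene (red higher, blue lower, grey not passing) and a black line at each list's median. List medians run from 0.18 to 1.81 in Asxl1-/-Jak2V617F against Jak2V617F and lie below 0 in Jak2V617F against WT, 2 comparisons that share the Jak2V617F libraries.

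Patterns over the 11 libraries were compared by the root-mean-square difference of centred log2 CPM among 10988 protein-coding genes with a mean of at least 2 CPM. Nearest to Mcpt8 were Aldh3b1 (0.16), Mcemp1 (0.17), Cybb (0.22), B430306N03Rik (0.22) and Mocos (0.22). Nearest to Ms4a2 were Arrb2 (0.15), Gpr141 (0.17), Tmem159 (0.17), Adpgk (0.18) and Slc31a2 (0.19). Cpa3 had no neighbour that close, and its nearest were Mdga1 (0.34), Agpat2 (0.34), the progenitor antigen Cd34 (0.35), Lmo1 (0.36) and Gm10282 (0.36). Among the members, Mcpt8 lay 0.26 from Alox5 and 0.30 from Hdc, but 0.51 from Prss34, the other basophil protease, and 0.58 from Cpa3. The libraries share depth and genotype, so these distances are a description.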

How the data were processed

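RNA of c-kit+ bone marrow cells was sequenced in 11 libraries of 4 genotypes, and groups follow the genotype labels. The authors deposited unnormalized counts of reads for each Ensembl gene. Per the submitters' processing notes, mm10, featureCounts 1.5.0-p3 and HISAT2 2.0.5 were among the build and tools, whose roles are not stated. The sources used here do not state the strand setting, the annotation release or how reads mapping to several genes were counted, so overlapping and near-identical genes are uncertain. The chromatin samples were not analysed here.

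Under R 4.3.3, edgeR 4.0.16 filtered genes with filterByExpr, set TMM factors and ran its robust quasi-likelihood F test in 1 fit of all 11 libraries with a genotype factor. Benjamini-Hochberg adjustment covered the 16262 genes that passed, calls needed an adjusted p under 0.05, and the common biological coefficient of variation was 19.7%. Log2 fold changes carry a standard error obtained by dividing their size by the root of the F statistic. CPM are counts scaled to a common library size with the TMM factors. The chi-square between replicates of a genotype was 8.44 to 37 per degree of freedom, far from a repeated deposit, and all were kept. The test was also run on simulated counts with the same spread for all genes. That setting is simpler than these data, so the run does not bear on the calls here.

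Alternatives were median-of-ratios scaling, no filter, a stricter filter (1 CPM in 3 libraries), the replicate number as a block, a sex term (Y-linked genes above 10 CPM), the compared genotypes alone, DESeq2 1.42.0 and each library left out in turn. The 10 members, the pathway lists and the marker lists were chosen with earlier results of these data known. An erythroid marker of the chosen list is not reported here and was left out of its sum. All members are named in every comparison, and per pathway list up to 4 called genes of smallest adjusted p, or others chosen after their values were seen (Fyn, Il1rl1, Ltc4s, Mitf, Cebpa, Gata2, Gata1, Zfpm1, Hes1 and Stat5a). Promoter windows are RefSeq sequences (GRCm38.p6), matched by gene symbol for all 10 members.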

Additional observations from a re-analysis of the deposited data

Results flagged for a closer look

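For 6 genes the effect of Asxl1 loss, which in the WT background cannot be told apart from sex, differed between the Jak2V617F and the WT background by the interaction term of the edgeR fit. The log2 differences were 1.10 for Cpa3, 2.54 for Mcpt8, 3.41 for Fcer1a, 1.83 for Ms4a2, 2.51 for Hdc and 3.03 for Alox5. Among all genes tested 23.7% had a higher and 17.9% a lower effect, so a difference of this kind is common in these libraries. No group held 4 libraries or more, so single libraries were not screened for outlying values.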

How the results depend on the processing

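Across the alternatives, 1007 of the single-gene values kept their side of the threshold, 20 newly passed it and 34 no longer passed. 23 values changed sign, of which 0 were called in either fit. In Asxl1-/-Jak2V617F against Jak2V617F 6 to 7 genes were higher and 0 lower with each library left out in turn, in Jak2V617F against WT 0 to 1 were higher and 7 lower, and in the interaction 6 to 7 were higher and 0 lower. In Asxl1-/- against WT 1 to 2 were higher and 0 to 1 lower, in Asxl1-/-Jak2V617F against WT 0 to 1 higher and 0 to 3 lower, and in Asxl1-/-Jak2V617F against Asxl1-/- 0 higher and 1 to 3 lower. Jak2V617F against WT had 1 higher gene, Il4, in place of 0 with median-of-ratios scaling, the stricter filter or a sex term. Asxl1-/- against WT had 2 higher in place of 1 in the fit of the compared genotypes alone. Asxl1-/-Jak2V617F against WT had 0 higher in place of 1 with the stricter filter and the compared genotypes alone, since Cma1 was then not tested, and 0 lower in place of 1 with median-of-ratios scaling, no filter or the stricter filter. Asxl1-/-Jak2V617F against Asxl1-/- had 0 lower in place of 1 with the sex term and 3 with the compared genotypes alone. Apart from Cma1 the cause was not tested.

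The replicate numbers did not pair the libraries: same-numbered libraries deviated together with r from -0.2 to 0.17, and 4 of 15 pairs exceeded 0.1. With the replicate block, Jak2V617F against WT had 1 higher in place of 0, Asxl1-/-Jak2V617F against WT had 0 higher in place of 1 and 0 lower in place of 1, and Asxl1-/-Jak2V617F against Asxl1-/- had 344 genes higher in the whole table in place of 538. Under the block Prss34 did not pass in Asxl1-/-Jak2V617F against Jak2V617F (adjusted p = 0.0794), nor did Cma1 (0.0686) and Alox5 (0.08) in Asxl1-/-Jak2V617F against WT, while Il4 passed in Jak2V617F against WT (0.038).

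Counts over all genes moved most where the Asxl1-/- libraries entered. With the sex term, Asxl1-/- against WT had 94 higher and 408 lower genes in place of 1835 and 1829, Asxl1-/-Jak2V617F against Asxl1-/- 51 and 1 in place of 538 and 361, and the interaction 1907 and 1172 in place of 3858 and 2906. DESeq2 called 2054 higher in Asxl1-/-Jak2V617F against WT in place of 1350, and 861 higher and 606 lower against Asxl1-/-. Without Asxl1-/- 1 the counts were 78 higher and 210 lower in Asxl1-/- against WT, and without WT 2 they were 272 higher and 259 lower in Asxl1-/-Jak2V617F against WT. Cma1, Cd200r3 and Il4 had 38 counts or fewer in any library, and the part of depth in their values was not tested.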

Other observations

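The lowest Jak2V617F library was not the same for all genes. Jak2V617F 3 had the lowest Hdc (13.7 CPM), Alox5 (7.06), Prss34 (3.43) and Mcpt8 (2.64) of the 3, yet the highest Cpa3 (6.96 CPM) and Il4 (2.00 CPM). WT 1 had the lowest Prss34 of the WT libraries (25.1 CPM against 91.9 and 73.3 CPM in WT 2 and WT 3) while its Cpa3 was level with theirs (28.4 CPM against 28.5 and 27.6 CPM). Each of these orders rests on 3 libraries and was noticed after the values were seen.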
